A study of Homo sapiens with 42 samples.

Results

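RPL3L carrying R343W was compared with RPL3L carrying P291L in AC16 cells, a human line that the labels call cardiomyocyte-like, by sequencing of polyA-selected RNA from whole cells. Each line was measured in 3 libraries, 6 of the 30 whole-cell libraries in the series. The series set lines with an RPL3 hairpin, alone or with wild-type or variant RPL3L, beside a scrambled hairpin. Genes with a mean of at least 1 TPM (transcript abundance scaled to the same total in every library) over the 6 libraries were kept, which left 14426 of 60606 genes. Another 27167 genes were listed at 0 in all 6. The filter fell between mean levels of 0.9994 TPM outside and 1 TPM inside.

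The R343W line held a doxycycline-inducible hairpin against RPL3 and an RPL3L construct with the R343W substitution. The P291L line held the same kind of hairpin and an RPL3L construct with P291L, which its label alone also calls inducible. Both lines therefore carried the knockdown, and both received doxycycline at 1 ug/ml. Hairpin cells were kept by hygromycin, and construct cells were sorted on the BV421 channel, in which the blue protein EBFP2 is seen. As far as the labels say, each variant stands for 1 transduced and sorted line, so the effect of a substitution and that of its line cannot be told apart. The labels do not say that the replicates were separate cultures, so p-values measure only the spread between libraries.

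RPL3 is a protein of the large ribosomal subunit that reaches toward the peptidyl transferase centre, where peptide bonds are made. RPL3L is its paralog, made mainly in heart and skeletal muscle, where it can take the place of RPL3 in the ribosome. Inherited RPL3L variants are known in dilated cardiomyopathy of early life. AC16 came from fusing adult ventricular heart cells with a fibroblast line, and it proliferates in culture.

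The reference codons of the changed residues are shown because the lines differ in them by design. They were read from GRCh38 with the GENCODE 29 models, both genes lying on the minus strand. Capitals mark the codon and small letters the 15 bases on each side. The proline of P291L is at chr16:1946703-1946705 in exon 7, and the arginine of R343W is at chr16:1945853-1945855 in exon 8. The matching RPL3 codons are at chr22:39314185-39314187 and chr22:39313652-39313654, in exons 7 and 8 of RPL3.
RPL3L at R343W: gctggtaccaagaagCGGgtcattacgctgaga
RPL3 at the position of R343W: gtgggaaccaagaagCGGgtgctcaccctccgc
RPL3L at P291L: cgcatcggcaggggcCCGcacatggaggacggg
RPL3 at the position of P291L: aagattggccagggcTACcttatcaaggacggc
The residue of R343W is arginine in both paralogs and uses the same codon. The residue of P291L is proline in RPL3L and tyrosine in RPL3. The proteins have 407 residues (RPL3L) and 403 residues (RPL3), and 313 of 402 aligned residues, or 77.9%, were identical. The libraries' own reads were not used here, so the substitutions themselves were not checked.

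The R343W line held less of the RPL3L construct than the P291L line. RPL3L was at 2634, 2492 and 2741 TPM in the R343W libraries, against 4285, 4338 and 4263 TPM in the P291L libraries. The lines did not overlap, and the R343W mean was 61% of the P291L mean (log2 fold change -0.71, SE 0.04, limma adjusted p = 1.03e-05). The call was lost in fits over 18 or 30 libraries (adjusted p = 0.704 and 0.666). EBFP2, encoded by the same construct, averaged 8689 ± 533 TPM in R343W and 15030 ± 280 TPM in P291L (SD, n = 3 each), 57.8% of the P291L level. The doxycycline-dependent activator rtTA3 averaged 8532 ± 480 TPM in R343W and 15190 ± 278 TPM in P291L, or 56.2%. The 3 main entries of the hairpin vector were nearer to each other, the R343W means being 76.6% to 81.5% of the P291L means. Construct entries are no genes and were left out of the fit, so their values are a description. The substitution and the dose of the construct thus differ together between the lines and cannot be told apart.

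RPL3, the target of the hairpin, was at 729, 737 and 724 TPM in R343W and at 679, 685 and 658 TPM in P291L. The lines did not overlap, yet the difference was small (log2 fold change 0.12, SE 0.03, limma adjusted p = 0.0182), and it did not pass with median-ratio scaling (0.06, adjusted p = 0.269). Both lines stood well under the scrambled hairpin, which averaged 1570 ± 38.8 TPM, and above the RPL3 hairpin alone at 536 ± 35.2 TPM. RPL3 averaged 695 ± 17.5 TPM in D308N and 569 ± 1.42 TPM in D308V, the other variant lines in which no library was of a second technical kind. That second kind was seen in 6 libraries of other lines, in which the ratio of EBFP2 to rtTA3 was 1.43 to 1.57. The ratio was 0.996 to 1.03 in R343W and 0.971 to 1.01 in P291L. In library 3 of the RPL3 hairpin alone, which should hold no RPL3L, RPL3L was at 121 TPM and EBFP2 at 434 TPM, so levels in that line carry this doubt.

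**Figure D1:**
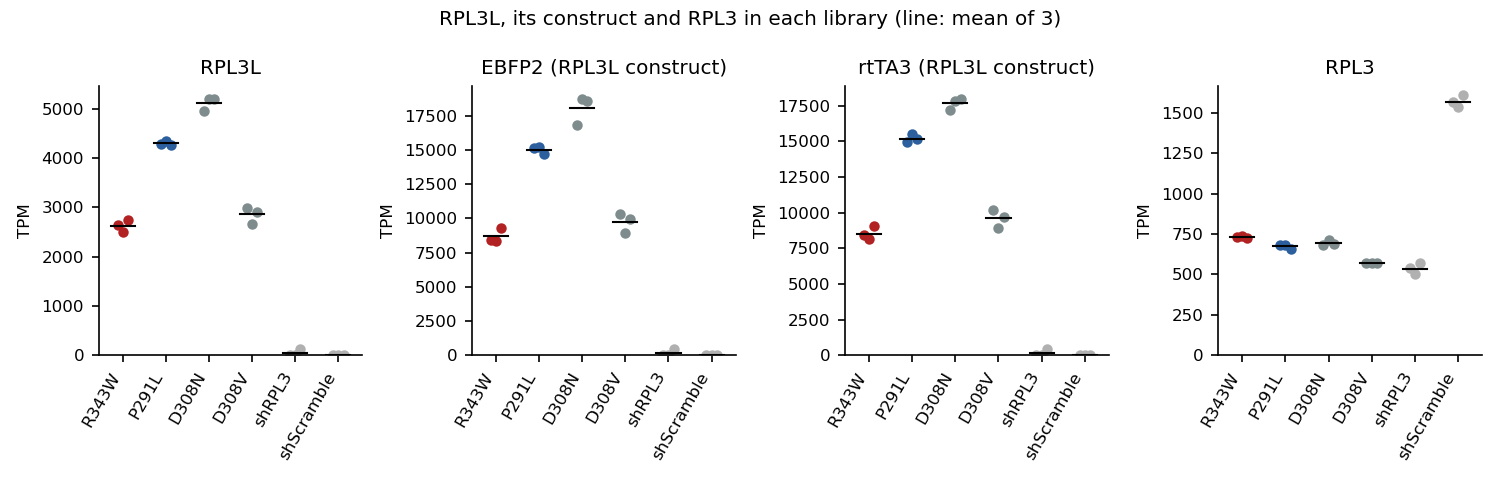
RPL3L, the EBFP2 and rtTA3 entries of its construct and RPL3 in TPM (vertical axes) in each library of 6 lines, with a bar at the mean of 3. R343W sits below P291L for RPL3L (2622 against 4295 TPM) and its construct entries, while RPL3 is at 730.2 against 674 TPM.

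A large share of genes differed past the threshold, mostly by little. Of 14426 genes, 5537 (38.4%) had a limma adjusted p under 0.05, with 3427 (23.8%) higher and 2110 (14.6%) lower in R343W. A log2 fold change of at least 0.5 was reached by 1022 genes (7.08%) upward and 777 (5.39%) downward, and one of at least 1 by 147 (1.02%) and 159 (1.1%). The share of higher calls depended on the scale: it was 61.9% of the calls as deposited and 49.3% of 5441 calls with median-ratio scaling, while the median change over all genes tested was 0.05 (log2) as deposited and -0.00 with that scaling. Along the first principal component (45.3% of the variance) the R343W libraries lay at 24.4 to 27.1 and the P291L libraries at -28.1 to -24.4. For 7389 genes (51.2%) the lines did not overlap at all, R343W being above for 31.1% and below for 20.1% of the genes tested. The genes named by rule below were chosen among these, so that their lines lie apart is a condition of the choice. Fold changes were computed on log2(TPM + 1), so those of weakly expressed genes come out too small, and depth is unknown because TPM keep none.

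**Figure D2:**
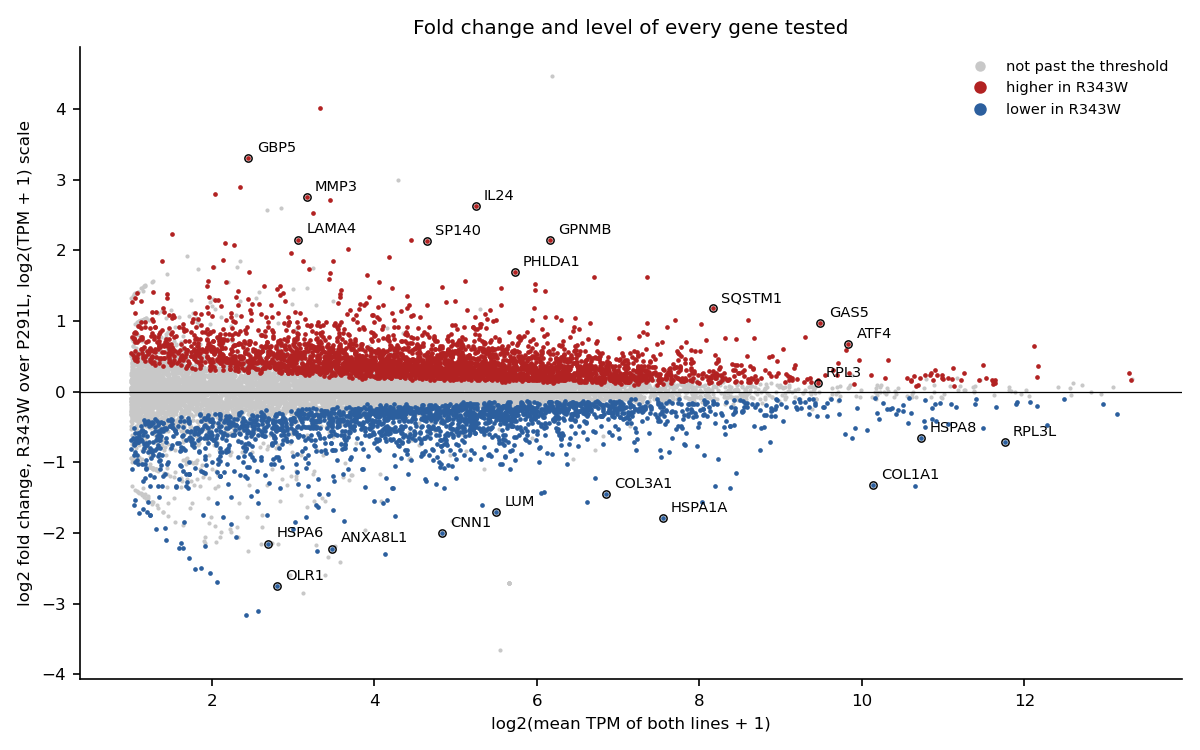
Log2 fold change of R343W over P291L (vertical) against log2 of the mean TPM of both lines plus 1 (horizontal) for the 14426 genes tested, coloured by call, with selected genes ringed. HSPA1A, COL1A1 and HSPA8 are among well expressed genes below 0, and SQSTM1, GAS5 and ATF4 among those above 0.

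Most cardiomyocyte markers were near 0 in both lines, against the label of cardiomyocyte-like cells. Of 20 cardiomyocyte markers 3 passed the filter, and sarcomere genes were near 0. Troponin T (TNNT2) reached 0.0449 TPM in R343W and 0.352 TPM in P291L, and troponin I (TNNI3) reached 0.145 TPM in R343W and 0.918 TPM in P291L. The sarcomere genes MYL2 and MYBPC3 and the natriuretic peptide gene NPPA were listed at 0 in all 6 libraries. GATA4, a cardiac transcription factor, was at 4.70 ± 0.321 TPM in R343W and 2.07 ± 0.0396 TPM in P291L (log2 fold change 0.89, limma adjusted p = 0.00041). The natriuretic peptide gene NPPB was at 0.16, 0 and 0 TPM in R343W, against 2.23, 2.61 and 1.41 TPM in P291L. Fibroblast markers were abundant, 13 of 14 tested, with summed levels of 4640 to 4840 TPM in R343W and 5790 to 5870 TPM in P291L. No endothelial marker of 10 and 1 leukocyte marker of 8 passed the filter. In bulk RNA, fewer cells of a type and less RNA per cell cannot be told apart.

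The list of cytosolic heat shock genes held mostly lower genes in R343W. Most of its members encode chaperones that hold and refold proteins and that heat shock factors switch on when proteins misfold. The list also holds HSPD1 and HSPE1, whose chaperonin lies in mitochondria, and the transcription factor gene HSF2. Of 25 tested members of 27, 16 were lower and 3 higher in R343W, against a background of 14.6% lower and 23.8% higher among all genes tested, and the list's median log2 fold change was -0.32 beside 0.05 for all genes. Of these, 7 were lower by at least 0.5 in size, where 5.39% of all genes were.

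The start regions of the first 3 genes of this list under the naming rule are shown because heat shock factors act through repeated GAA units there. Each is the 150 bases before the RefSeq start site on GRCh38.p14, plus strand, at chr1:161524390-161524539 for HSPA6, chr6:31815393-31815542 for HSPA1A and chr6:31827588-31827737 for HSPA1B. Capitals mark matches to the paired-unit heat shock element, GAANNTTC or TTCNNGAA, and in HSPA6 overlapping matches that form the triple-unit element TTCNNGAANNTTC.
HSPA6: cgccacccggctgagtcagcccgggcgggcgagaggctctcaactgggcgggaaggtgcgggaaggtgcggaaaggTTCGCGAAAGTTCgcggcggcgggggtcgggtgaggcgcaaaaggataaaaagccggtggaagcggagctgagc
HSPA1A: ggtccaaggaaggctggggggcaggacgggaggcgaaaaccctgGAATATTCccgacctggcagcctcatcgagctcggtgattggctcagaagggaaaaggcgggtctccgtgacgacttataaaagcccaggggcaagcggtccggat
HSPA1B: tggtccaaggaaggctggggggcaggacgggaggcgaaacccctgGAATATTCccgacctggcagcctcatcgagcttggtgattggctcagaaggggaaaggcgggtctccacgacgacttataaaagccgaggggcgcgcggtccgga
With both strands searched over the 250 bases before each start, the paired-unit element occurred in 11.6% and the triple-unit element (GAANNTTCNNGAA or TTCNNGAANNTTC) in 0.441% of 35116 promoters. Among the 24 list genes with a promoter in the table, 16 held the shorter and 6 the longer element in at least 1 of their promoters. These counts are by gene, and some genes have several promoters, whereas the percentages are by promoter, so they cannot be compared directly. A match is a run of letters, and binding was not measured.

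HSPA6, a strictly inducible HSP70, was at 1.49, 1.02 and 1.63 TPM in R343W, against 8.69, 9.78 and 10.1 TPM in P291L (log2 fold change -2.15, SE 0.13, limma adjusted p = 1.95e-05). HSPA1A, the main inducible HSP70, was at 84.2, 77.3 and 87.3 TPM in R343W and 280 to 297 TPM in the 3 libraries of P291L (-1.79, SE 0.05, adjusted p = 9.65e-07). Its near-identical neighbour HSPA1B was at 164, 155 and 179 TPM in R343W and 422, 430 and 402 TPM in P291L (-1.33, adjusted p = 4.51e-06). Reads may be split between the HSPA1A and HSPA1B copies, but their sum was also lower, 249 ± 17.4 TPM in R343W and 708 ± 22.6 TPM in P291L. HSPA2, a testis-enriched HSP70, averaged 2.49 ± 0.396 TPM in R343W and 6.32 ± 0.243 TPM in P291L (-1.07, adjusted p = 0.000273).

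The abundant chaperones HSPA8 and HSP90AA1, named here after their values were seen, were lower too. HSPA8, the constitutive HSP70, averaged 1315 ± 73.6 TPM in R343W and 2081 ± 13.8 TPM in P291L (log2 fold change -0.66, limma adjusted p = 2.57e-05). HSP90AA1, the inducible cytosolic HSP90, averaged 1455 ± 80.3 TPM in R343W and 2056 ± 41.8 TPM in P291L (-0.50, adjusted p = 0.000111). The list summed to 8690 to 8920 TPM in R343W libraries and 11600 to 11700 TPM in P291L libraries. Among the transcription factors themselves, HSF4 was at 5.92, 4 and 3.43 TPM in R343W and 15.2, 16.4 and 16.5 TPM in P291L (-1.67, adjusted p = 0.000158), whereas HSF1, the main activator, was higher in R343W (0.46, adjusted p = 0.000899). Chaperonin CCT and prefoldin subunits, which fold actin and tubulin, had 4 higher and 2 lower of 14, with a median of 0.07. Of all genes, 23.8% were higher and 14.6% lower.

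Chaperones of the endoplasmic reticulum were lower as well. Of 23 genes of the chaperone and unfolded protein response list, 14 were lower and 3 higher in R343W, where 14.6% and 23.8% of all genes were (median log2 fold change -0.22). HERPUD1, an ER-associated degradation factor, was at 41.3, 38.8 and 40.9 TPM in R343W and 65.2, 64.8 and 59.9 TPM in P291L (-0.64, limma adjusted p = 0.000102). PDIA4, a disulphide isomerase, was at 69, 68 and 71.6 TPM in R343W and 106, 105 and 104 TPM in P291L (-0.59, adjusted p = 3.95e-05). SEL1L, of the same degradation route, was lower too (-0.55, adjusted p = 0.000432), and HSPA5, the HSP70 of this compartment, named after its values were seen, averaged 262 ± 11.3 TPM in R343W and 370.1 ± 3.84 TPM in P291L (-0.50, adjusted p = 7.54e-05). ERN1, which encodes the sensor IRE1, went the other way (0.54, adjusted p = 0.00259). XBP1, whose messenger IRE1 splices, differed by -0.01 (adjusted p = 0.88).

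Matrix genes and contractile genes formed the other large group lower in R343W. Of 51 tested collagen and matrix genes, 27 were lower and 10 higher, where 14.6% and 23.8% of all genes were (median log2 fold change -0.29). By at least 0.5 in size 21 were lower, where 5.39% of all genes were. LUM, the collagen-binding proteoglycan lumican, was at 19.7, 20 and 21.1 TPM in R343W and 70.3, 68.1 and 65.5 TPM in P291L (-1.70, SE 0.05, limma adjusted p = 1.29e-06). DCN, decorin, was at 1.44, 1.89 and 2.56 TPM in R343W and 5.95, 6.38 and 9.41 TPM in P291L (-1.47, adjusted p = 0.000787). COL3A1, a fibrillar collagen, was at 63.4, 57 and 62.1 TPM in R343W and 164, 171 and 169 TPM in P291L (-1.45, adjusted p = 1.91e-06). With COL1A1 and COL1A2, chosen for this sum after their values were seen, it summed to 890 ± 62.1 TPM in R343W and 2250 ± 67.3 TPM in P291L. SPARC, a collagen chaperone of the matrix named here after its values were seen, averaged 914 ± 1.59 TPM in R343W and 2311 ± 20.5 TPM in P291L (-1.34, adjusted p = 2.83e-07).

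The laminins did not move one way. LAMA5, a chain of basement membrane laminin, was at 4.95, 3.28 and 3.33 TPM in R343W and 13.1, 13.5 and 14.4 TPM in P291L (log2 fold change -1.61, limma adjusted p = 9.85e-05). LAMA4, a chain of vascular and muscle laminins, was at 10.8, 13.5 and 13.3 TPM in R343W and 1.77, 1.31 and 3.34 TPM in P291L (2.15, SE 0.23, adjusted p = 0.000503). Fibroblast markers, which share members with the matrix list, were lower for 9 and higher for 3 of 13 tested, where 14.6% and 23.8% of all genes were. The receptor PDGFRB (-1.06, adjusted p = 2.95e-05) fell with the collagens, and FAP (0.69, adjusted p = 0.000111), a surface protease of activated fibroblasts, rose.

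Of 19 tested smooth muscle and cardiac stress genes, 11 were lower and 1 higher in R343W, where 14.6% and 23.8% of all genes were (median log2 fold change -0.26). CNN1, calponin, which binds actin in smooth muscle, was at 10.7, 10 and 10.6 TPM in R343W and 44.1, 46 and 43.9 TPM in P291L (-2.00, SE 0.06, limma adjusted p = 9.65e-07). TAGLN, or SM22, another actin-binding protein, averaged 132 ± 11 TPM in R343W and 390 ± 16.8 TPM in P291L (-1.56, adjusted p = 3.79e-06). The myosin light chain MYL9 averaged 216 ± 7.47 TPM in R343W and 482 ± 18.6 TPM in P291L (-1.15, adjusted p = 2.43e-06), and CSRP1, a LIM protein of the cytoskeleton, fell by 0.83 on the log2 scale (adjusted p = 3.74e-06). ACTA2, smooth muscle actin, and SRF, the factor that drives many contractile genes, did not pass (0.28 and 0.15, adjusted p = 0.0597 and 0.066). ANKRD1, a stretch-responsive gene of heart muscle, was the member that rose (0.75, adjusted p = 0.00298).

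Stress genes driven by ATF4 were higher in R343W. ATF4 is the transcription factor of the integrated stress response, made when initiation of translation is slowed or amino acids run short. Of 37 tested members of 39, 26 were higher and 3 lower, where 23.8% and 14.6% of all genes were (median log2 fold change 0.44). By at least 0.5, 15 were higher, where 7.08% of all genes were. TRIB3, a pseudokinase that dampens the response, was at 33.5, 32.9 and 35.9 TPM in R343W and 13.5, 15.2 and 13.5 TPM in P291L (1.22, SE 0.07, limma adjusted p = 1.65e-05). GDF15, a secreted stress hormone, was at 9.19, 9.05 and 10.5 TPM in R343W and 2.67, 2.83 and 2.8 TPM in P291L (1.49, adjusted p = 2.61e-05). SQSTM1, the autophagy receptor p62, was at 387, 389 and 413 TPM in R343W and 176, 170 and 179 TPM in P291L (1.18, adjusted p = 1.7e-06).

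The gene for ATF4 itself averaged 1118 ± 12.7 TPM in R343W and 703 ± 16.3 TPM in P291L (log2 fold change 0.67, limma adjusted p = 6.38e-06). DDIT3, which encodes CHOP, averaged 133 ± 3.1 TPM in R343W and 67.2 ± 1.52 TPM in P291L (0.97, adjusted p = 4.09e-06). These genes and ASNS were named after their values were seen. Asparagine synthetase ASNS was 1 of the 3 members of the list that were lower (-0.31, adjusted p = 0.00588). The aminoacyl-tRNA synthetases, a list of their own, charge tRNAs and are in part controlled by ATF4. Of 22 tested, 9 were higher and 3 lower, where 23.8% and 14.6% of all genes were. SARS1 led the higher ones (0.53, adjusted p = 4.09e-05).

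Immediate early genes and feedback genes of the ERK pathway were mostly higher. Of 27 tested, 19 were higher and 2 lower, where 23.8% and 14.6% of all genes were (median log2 fold change 0.61). By at least 0.5, 16 were higher, where 7.08% of all genes were. PHLDA1, induced by growth factor signalling, was at 79.7, 78.8 and 81.1 TPM in R343W and 24.4, 23.5 and 24.2 TPM in P291L (1.69, SE 0.05, limma adjusted p = 9.54e-07). DUSP6, a phosphatase that ERK induces and that switches ERK off, was at 16.6, 16.5 and 15.1 TPM in R343W and 5.9, 5.87 and 5.48 TPM in P291L (1.34, adjusted p = 1.54e-05). Its nuclear relative DUSP4 averaged 16.3 ± 0.292 TPM in R343W and 5.65 ± 0.467 TPM in P291L (1.38, adjusted p = 1.69e-05), and SPRY4, a receptor kinase inhibitor, rose by 1.07 (adjusted p = 0.000163). The classic first responders FOS and EGR1 did not pass (-0.24 and 0.08, adjusted p = 0.317 and 0.392), and DUSP1, a phosphatase of stress kinases, was lower (-0.71, adjusted p = 0.000135). CCND1, the G1 cyclin that mitogens induce, was at 92.5, 86 and 94.6 TPM in R343W and 35.3, 30 and 33.5 TPM in P291L (1.44, adjusted p = 6.81e-06). The CDK inhibitor gene CDKN2B moved the other way (-1.16, adjusted p = 0.000135).

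Cytokine genes rose in part. Of 25 tested NF-kB targets and cytokines of 39, 14 were higher and 6 lower, where 23.8% and 14.6% of all genes were (median log2 fold change 0.27). IL24, an IL-10 family cytokine, was at 60.4, 67.8 and 64.9 TPM in R343W and 8.86, 10.5 and 9.6 TPM in P291L (2.62, SE 0.08, limma adjusted p = 9.65e-07). IL1B, a central inflammatory cytokine, was at 52.5, 50 and 50.5 TPM in R343W and 17.6, 15.9 and 16.4 TPM in P291L (1.56, adjusted p = 2.5e-06). The pentraxin PTX3, a soluble pattern receptor, averaged 55.3 ± 0.796 TPM in R343W and 25.3 ± 0.821 TPM in P291L (1.10, adjusted p = 5.76e-06). IL32 was lower, at 7.15 ± 0.512 TPM in R343W and 22.9 ± 2.71 TPM in P291L (-1.55, adjusted p = 2.81e-05). The core feedback genes of NF-kB differed less, with -0.27 for NFKBIA (lower) and -0.01 for TNFAIP3 (not past the threshold). Interferon and antigen presentation genes had 12 higher and 8 lower of 42, with a median of 0.09, and 8 each way with median-ratio scaling (0.04).

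GBP5, an interferon-induced guanylate-binding protein that acts in inflammasome assembly, had the largest fold change of the genes named by rule. It lies on chromosome 1 at 89258950 to 89272804 (GRCh38, GENCODE 29). Its level was 9.82, 8.14 and 8.8 TPM in R343W, against 0.0115, 0.0112 and 0 TPM in P291L (log2 fold change 3.30, SE 0.12, limma adjusted p = 2.43e-06). In the other 27 whole-cell libraries of the series, P291L included, it did not go above 0.0797 TPM. The neighbouring members of its family did not share this: GBP1 averaged 19.9 ± 1.27 TPM in R343W and 22.6 ± 1.27 TPM in P291L (-0.17, adjusted p = 0.0898), and GBP2 was lower in R343W (-0.91, adjusted p = 0.00609). A rule made after this was seen asked for at least 1 TPM in every library of a line and at least 10 times the highest value elsewhere. It found 2 genes for R343W (GBP5 and MIR5000) and 1 for P291L (OR51M1), and 0 to 5 genes in each of the other 8 lines.

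Noncoding host genes of small nucleolar RNAs were higher in R343W. Their introns carry the guides for modification of ribosomal RNA, and many of their spliced transcripts are short-lived RNAs whose decay is tied to translation. Of 24 tested, 17 were higher and 1 lower, where 23.8% and 14.6% of all genes were (median log2 fold change 0.50). By at least 0.5, 12 were higher, where 7.08% of all genes were. GAS5 was at 967, 973 and 911 TPM in R343W and 482, 493 and 483 TPM in P291L (0.97, SE 0.04, limma adjusted p = 2.43e-06). ZFAS1 was at 505, 541 and 506 TPM in R343W and 250, 260 and 253 TPM in P291L (1.02, adjusted p = 2.65e-06). SNHG7 (0.86) and SNHG1 (0.78) were higher as well, with adjusted p = 3.24e-05 and 4.92e-06. The 24 hosts summed to 5150 to 5300 TPM in R343W and 3250 to 3290 TPM in P291L. Such genes share sequence with the small RNAs in their introns, and TPM of the hosts may be affected.

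Ribosome assembly genes were higher more often than lower, by small amounts, where 23.8% of all genes were higher and 14.6% lower. Of 55 factors for the small subunit 28 were higher and 6 lower (median log2 fold change 0.18), of 64 for the large subunit 26 were higher and 5 lower (0.13), and of 26 genes of RNA polymerase I and the snoRNP core 15 were higher and 3 lower (0.20). These counts depended on the setting. For the small subunit they were 17 higher and 8 lower under median-ratio scaling, 16 and 2 in the fit over 30 libraries, and 17 and 6 without P291L library 2. For the large subunit they were 21 and 7 under median-ratio scaling and 17 and 4 over 30 libraries. The RNA polymerase I and snoRNP list gave 11 and 3, and 6 and 2, in the same settings. NOP14, a small-subunit factor, averaged 51 ± 1.42 TPM in R343W and 36.1 ± 0.944 TPM in P291L (0.49, limma adjusted p = 0.000223). RRS1, a large-subunit factor, averaged 97.6 ± 3.39 TPM in R343W and 69.6 ± 1.73 TPM in P291L (0.48, adjusted p = 0.000154). RRP15, of the same subunit, was lower (-0.55, adjusted p = 0.000272). Ribosomal protein genes did not move as a group. Of 52 large-subunit genes 17 were higher and 12 lower, RPL3L among the lower (median 0.04), and with median-ratio scaling 6 were higher and 12 lower and the median was -0.02. The 33 small-subunit genes gave 11 higher and 5 lower (0.05), and with median-ratio scaling 5 higher and 7 lower (-0.01). RPL9 stood out among them, at 630, 654 and 611 TPM in R343W and 415, 406 and 425 TPM in P291L (0.60, adjusted p = 2.09e-05). The elongation factor EEF1A1, among the most abundant messengers, averaged 8036 ± 54.9 TPM in R343W and 9979 ± 159 TPM in P291L (-0.31, adjusted p = 7.53e-05).

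Sterol and fatty acid synthesis lists held more lower than higher genes, by small amounts, where 14.6% of all genes were lower and 23.8% higher. Of 22 cholesterol synthesis genes 10 were lower and 1 higher (median log2 fold change -0.16). This count depended on the setting, with 4 lower and 0 higher in the fit over 30 libraries. It was 7 lower and 2 higher with a replicate block, and 13 and 1 with median-ratio scaling. The list was led by ACAT2, which makes acetoacetyl-CoA, at 94.6 ± 3.51 TPM in R343W and 141 ± 0.81 TPM in P291L (-0.57, limma adjusted p = 4.83e-05). EBP, a sterol isomerase, was at 48.6, 45.5 and 45.7 TPM in R343W and 72.7, 69.5 and 65.3 TPM in P291L (-0.56, adjusted p = 0.000213). SREBF1, which encodes the activator SREBP1, averaged 13.8 ± 1.97 TPM in R343W and 26.3 ± 3.39 TPM in P291L (-0.88, adjusted p = 0.00106). Its list, of sterol sensing, uptake and export, was even, with 3 of 15 each way (median -0.07), and NPC1, which exports cholesterol from lysosomes, was higher (0.62, adjusted p = 8.45e-05). Of 21 genes of fatty acid synthesis and desaturation 9 were lower and 2 higher (median -0.10). The desaturase SCD was lower (-0.54, adjusted p = 0.000247), and ACSL1, which activates fatty acids, was higher (0.83, adjusted p = 0.000356). Genes of fatty acid carriage, storage and lipolysis had 9 higher and 2 lower of 17 (median 0.28), with G0S2, an inhibitor of lipolysis, at 27, 32 and 29.7 TPM in R343W and 11, 11.1 and 10.6 TPM in P291L (1.36, adjusted p = 1.28e-05). PLIN2, a coat protein of lipid droplets, rose by 0.58 (adjusted p = 7.01e-05).

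Other lists were mixed or held more higher than lower genes, where 23.8% of all genes were higher and 14.6% lower. TGF-beta family genes had 8 higher and 11 lower of 26: the activin chain gene INHBA was at 27, 26.7 and 25.5 TPM in R343W and 10.1, 8.41 and 8.46 TPM in P291L (log2 fold change 1.46, limma adjusted p = 1.5e-05), whereas INHBB averaged 1.46 ± 0.18 TPM in R343W and 5.92 ± 0.317 TPM in P291L (-1.49, adjusted p = 5.59e-05). Antioxidant genes under NRF2 had 15 higher and 5 lower of 28 (median 0.25), among them HMOX1, heme oxygenase, at 74.8 ± 0.549 TPM in R343W and 41.2 ± 3.08 TPM in P291L (0.85, adjusted p = 4.76e-05). Lysosome and autophagy genes had 18 higher and 5 lower of 35 (0.14), including the protease CTSD (0.72, adjusted p = 8.42e-05). RGS4, a brake on G protein signals, was at 69.5, 65.3 and 71 TPM in R343W and 23.2, 23.1 and 26 TPM in P291L (1.47, adjusted p = 4.51e-06), and 5 of 11 RGS genes were higher and 1 lower. VEGFA, the vascular growth factor, was at 126, 114 and 114 TPM in R343W and 57.8, 56.7 and 56.2 TPM in P291L (1.04, adjusted p = 7.06e-06). Glycolysis and hypoxia genes as a list had 16 higher and 9 lower of 37 (0.07). With median-ratio scaling this list had 13 higher and 13 lower (0.01), and lysosome and autophagy genes 15 higher and 8 lower (0.08).

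Growth and housekeeping lists had small median changes, whether or not their shares of calls passed the 23.8% higher and 14.6% lower of all genes. S phase genes had 20 higher and 6 lower of 45 (median log2 fold change 0.12), and G2 and mitosis genes 12 higher and 6 lower of 38 (0.09). With median-ratio scaling S phase genes had 16 higher and 9 lower (0.06), and G2 and mitosis genes 9 higher and 8 lower (0.03). The p53 targets had 5 of 30 each way (-0.01). Proteasome subunits had 9 higher and 13 lower of 39 (-0.04), and nuclear genes of oxidative phosphorylation 13 higher and 15 lower of 75 (-0.04). With median-ratio scaling the proteasome had 2 higher and 17 lower, oxidative phosphorylation 7 higher and 23 lower (median -0.10 for both), and the p53 targets 3 higher and 6 lower. Mitochondrially encoded messengers had 3 higher and 0 lower of 13, MT-ND6 at 208 ± 12.2 TPM in R343W and 118 ± 7.12 TPM in P291L (0.82, limma adjusted p = 5.58e-05). MT-ND6 lies on the opposite strand from the other mitochondrial protein genes, and strand use in counting is not given in the sources used here. TXNIP, the redox and glucose-uptake regulator, was at 112 ± 3.01 TPM in R343W and 108 ± 1.33 TPM in P291L and did not pass (0.06, adjusted p = 0.28).

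**Figure D3:**
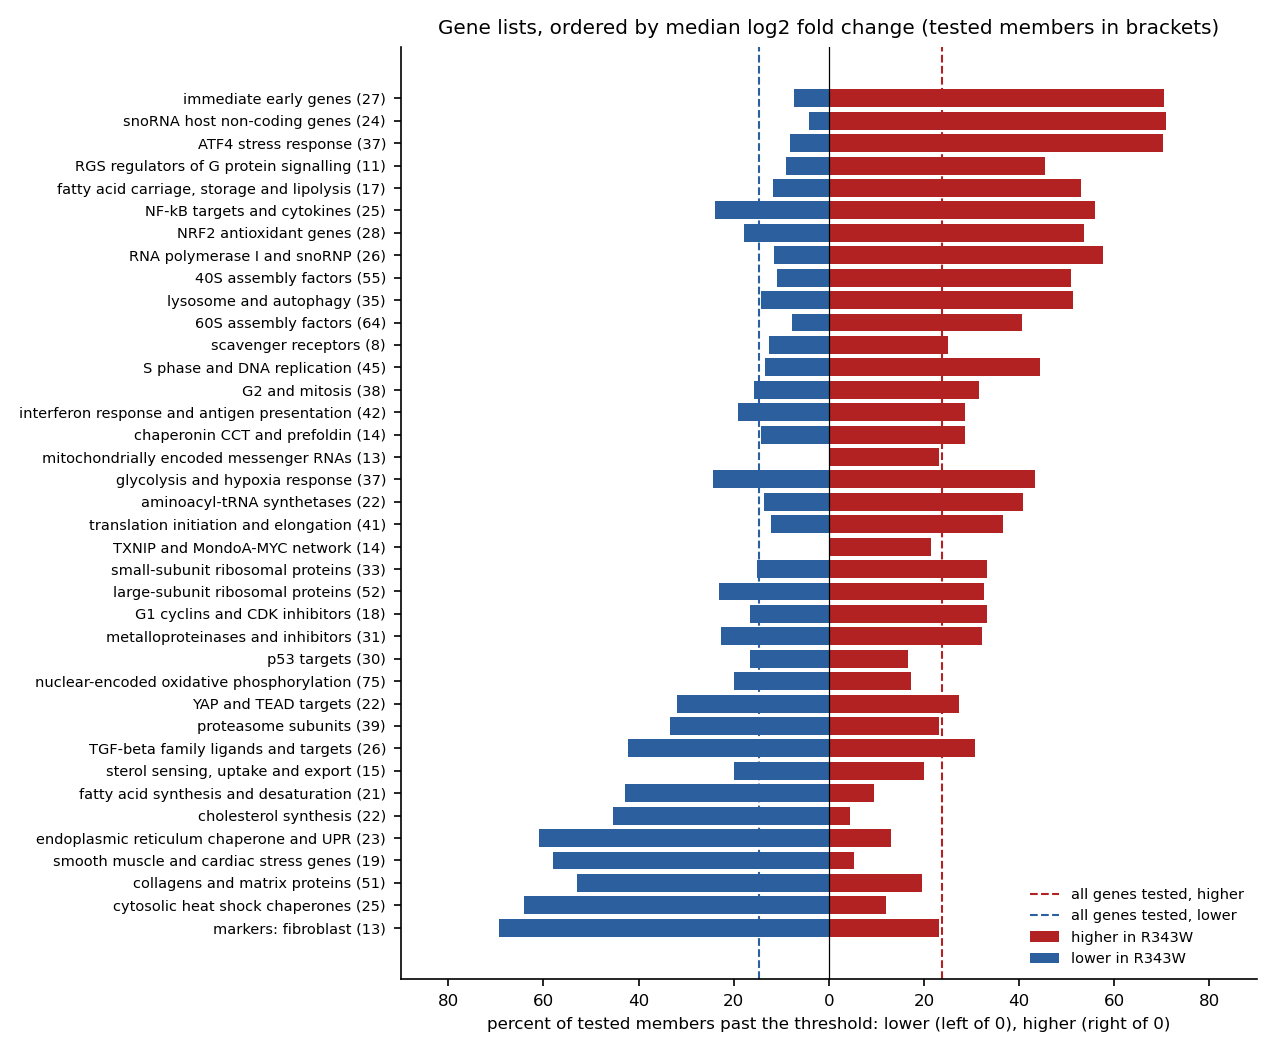
Percent of each list's tested members past the threshold that were higher (right of 0) or lower (left of 0) in R343W, with dashed lines at 23.8% and 14.6% for all genes tested. Immediate early, snoRNA host and ATF4 genes reach far to the right, and fibroblast markers, heat shock, matrix, contractile and ER chaperone genes far to the left.

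Among the genes with the largest differences upward were a metalloproteinase, a lysosomal glycoprotein and a pair of neighbouring noncoding RNAs. MMP3, stromelysin, was at 14.8, 14.8 and 14.2 TPM in R343W and 1.02, 1.71 and 1.3 TPM in P291L (log2 fold change 2.75, SE 0.12, limma adjusted p = 4.92e-06). GPNMB, a glycoprotein of lysosomes and melanosomes, averaged 116 ± 4.63 TPM in R343W and 25.5 ± 1.49 TPM in P291L (2.14, adjusted p = 9.54e-07). SP140, a chromatin reader best known in leukocytes, was at 40, 39.3 and 39.8 TPM in R343W and 8.2, 8.4 and 8.36 TPM in P291L (2.13, adjusted p = 9.54e-07). KYNU, an enzyme of tryptophan breakdown, averaged 6.81 ± 0.499 TPM in R343W and 0.839 ± 0.0607 TPM in P291L (2.08, adjusted p = 9.67e-06). LINC01291 and LINC01293, at 74918148 to 74938418 and 74940258 to 74942670 on chromosome 2, rose by 2.15 and 2.02 (adjusted p = 2.65e-06 and 1.53e-05). Others of the first 15 were FHAD1, MCTP1, HECW2, FAM20C, LINC00973 and SHISAL1, by 1.73 to 2.10.

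Downward, OLR1, the scavenger receptor LOX-1 for oxidised LDL, was at 0.608, 1.1 and 0.74 TPM in R343W and 11.7, 11.8 and 10 TPM in P291L (log2 fold change -2.75, SE 0.13, limma adjusted p = 6.81e-06). PKP2, plakophilin 2, a desmosome protein known from arrhythmogenic cardiomyopathy, was at 0.889, 0.916 and 0.908 TPM in R343W and 6.7, 6.6 and 7.46 TPM in P291L (-2.05, adjusted p = 8.84e-06). LIN28A, which blocks let-7 microRNAs, averaged 0.357 ± 0.0956 TPM in R343W and 5.17 ± 0.288 TPM in P291L (-2.19, adjusted p = 1.53e-05). The annexins ANXA8 and ANXA8L1 are near-identical copies and may share reads, and their sum was 10.7 ± 1.03 TPM in R343W and 45.9 ± 1.37 TPM in P291L. CYP24A1, which inactivates vitamin D, fell by 1.94 on the log2 scale (adjusted p = 6.81e-06). FGF23, the phosphate hormone, was at 3.07, 1.94 and 0.846 TPM in R343W and 12.2, 5.13 and 9.1 TPM in P291L (-1.74, adjusted p = 0.0222), a call that did not hold without R343W library 2 (adjusted p = 0.0673) or without P291L library 3 (0.076).

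Simple epithelial keratins were lower together. KRT19 was at 3.45, 3.24 and 2.51 TPM in R343W and 13, 12.6 and 12.9 TPM in P291L (log2 fold change -1.77, limma adjusted p = 2.09e-05). KRT18 averaged 203 ± 6.32 TPM in R343W and 394 ± 7.6 TPM in P291L (-0.95, adjusted p = 2.65e-06), and its partner KRT8 averaged 15.7 ± 1.54 TPM in R343W and 30.2 ± 0.8 TPM in P291L (-0.91, adjusted p = 9.91e-05). These were the 3 of 10 epithelial markers that passed the filter. The defining adhesion gene EPCAM did not exceed 0.0959 TPM in R343W or 0.19 TPM in P291L. ADAMTSL4, a matrix protein, and SAXO2, a microtubule-associated protein, completed the first 15 with falls of 1.85 and 1.87 on the log2 scale.

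**Figure D4:**
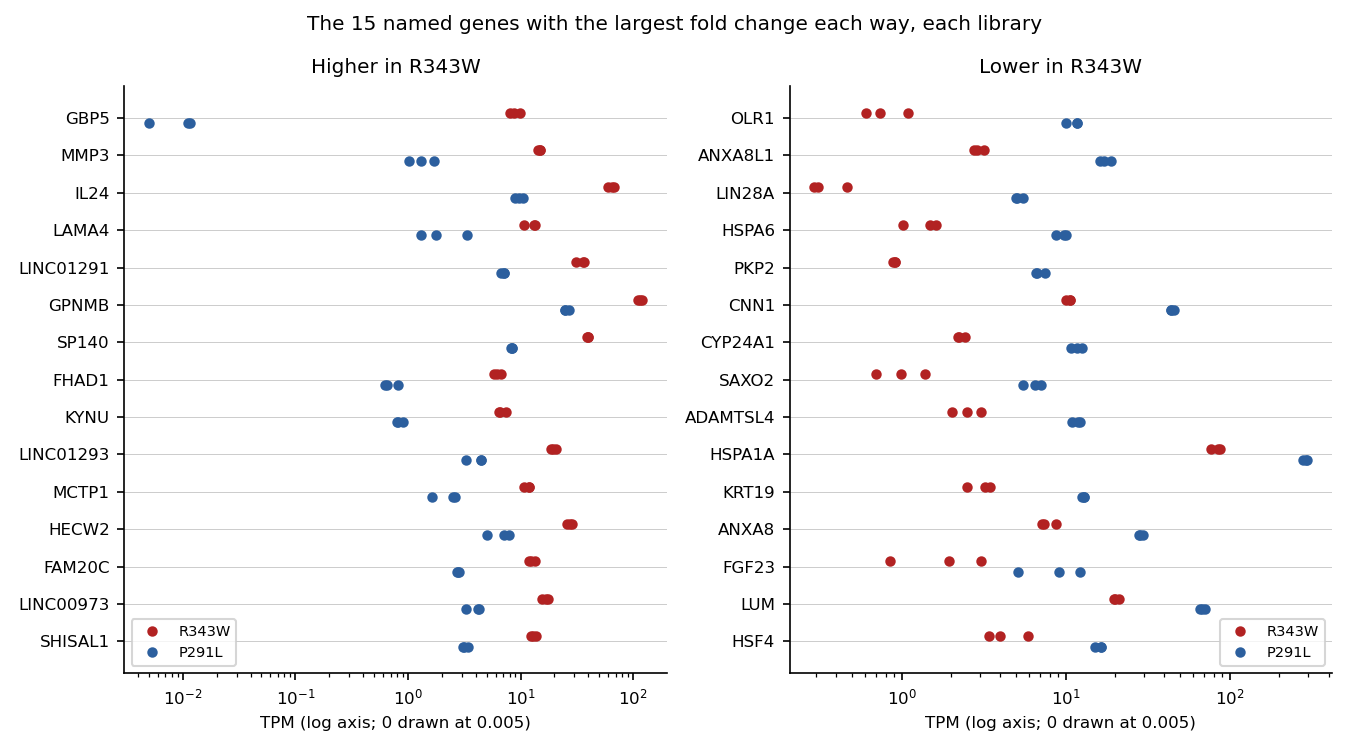
TPM on a log axis (horizontal) in each of the 3 R343W and 3 P291L libraries for the 15 named genes with the largest log2 fold change each way. The genes were chosen among those whose lines do not overlap, GBP5 lying at 8.14 to 9.82 TPM in R343W and at or below 0.0115 TPM in P291L.

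The levels in D308N and D308V, which change the same residue, were set beside those of R343W and P291L. The remaining variant lines and wild-type RPL3L, which hold libraries of the second technical kind, were not part of this range. These levels are a description, since each set of values is shared with other comparisons. Of the 306 genes called with a log2 fold change of at least 1 in size, every R343W library lay outside the range of the 6 D308N and D308V libraries for 150 genes (49%), and every P291L library did for 204 (66.7%). Over all genes tested the shares were 25.9% for R343W and 35.2% for P291L. The 306 genes were chosen because R343W and P291L lie apart, so higher shares among them follow in part from that choice. Replicates also spread less in P291L (median SD 0.0805 on the log2 scale) than in R343W (0.0998), and a tighter group lies outside a range more easily. Both lines lay outside for 100 genes, R343W alone for 50, P291L alone for 104 and neither for 52. Among the 159 genes lower in R343W the shares were 37.7% for R343W and 65.4% for P291L, and among the 147 higher ones 61.2% for R343W and 68% for P291L.

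For HSPA1A and TAGLN, R343W was near D308N and D308V and P291L was high. HSPA1A averaged 82.9 TPM in R343W and 289.5 TPM in P291L, with 85.5 TPM in D308N, 59.5 TPM in D308V, 69.5 TPM in the RPL3 hairpin alone and 202 TPM in the scrambled hairpin. RPL3L averaged 5116 ± 143 TPM in D308N and 2854 ± 166 TPM in D308V. TAGLN averaged 132 TPM in R343W and 390 TPM in P291L, with 139 TPM in D308N, 157 TPM in D308V, 341 TPM in the RPL3 hairpin alone and 271 TPM in the scrambled hairpin. CNN1 in P291L, at 44.7 TPM, was above all of these lines, the next highest being D308N at 19.8 TPM.

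For TRIB3 and GAS5, an ATF4 target and a snoRNA host gene, P291L was the lowest of these variant lines. TRIB3 averaged 34.1 TPM in R343W and 14.1 TPM in P291L, with 31.9 TPM in D308N, 36.1 TPM in D308V, 13.6 TPM in the RPL3 hairpin alone and 16 TPM in the scrambled hairpin. GAS5 averaged 950.3 TPM in R343W and 486 TPM in P291L, with 1360 TPM in D308N, 1300 TPM in D308V, 938 TPM in the RPL3 hairpin alone and 332 TPM in the scrambled hairpin. P291L thus stood nearest to the scrambled hairpin for GAS5 and between the hairpin lines for TRIB3. IL24 was at 64.4 TPM in R343W, under D308N at 86.1 TPM and D308V at 104 TPM, while P291L at 9.65 TPM was under all 3 of them. Of the 6 lines given here, R343W was the highest for GBP5, MMP3 and LAMA4: MMP3 averaged 14.6 TPM in R343W and 1.34 TPM in P291L, with 1.14 TPM in D308N, 2.91 TPM in D308V, 0.901 TPM in the RPL3 hairpin alone and 0.852 TPM in the scrambled hairpin. GPNMB was highest in R343W and lowest in P291L, at 116 and 25.5 TPM, with the other 4 lines at 33.2 to 73.6 TPM.

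**Figure D5:**
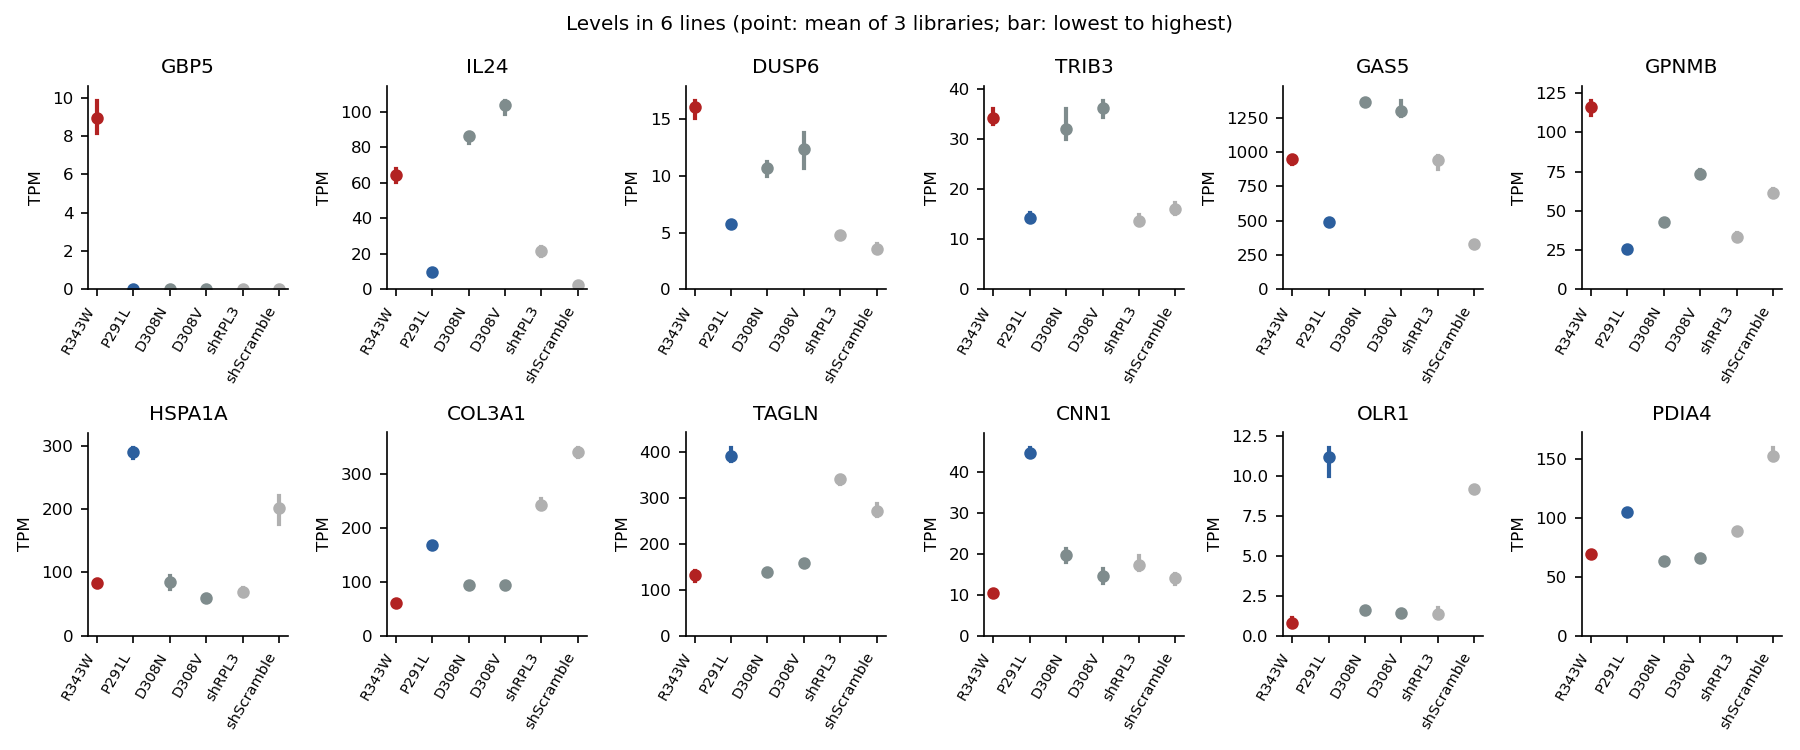
TPM (vertical axes) of 12 genes in 6 lines, with a point at the mean of 3 libraries and a bar from the lowest to the highest. Of the 4 variant lines shown, P291L lies away from the others for HSPA1A, TAGLN and TRIB3 (14.1 TPM against 31.9 to 36.1 TPM in R343W, D308N and D308V), and R343W for GBP5, while CNN1 is highest in P291L and lowest in R343W.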

How the data were processed

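PolyA RNA of whole cells was made into libraries with TruSeq chemistry, per the labels' protocols. Per the submitters' processing notes, bcl2fastq 2.19 was used, along with kallisto, Bowtie and bedtools. Which transcript models and build gave the values is not stated in what was used here. The deposited table gives the authors' TPM for each gene, with the same total in every library. Its 60612 entries held 6 construct sequences and 60606 genes, and 0 of its columns were without a labelled library. TPM keep no depth, so the precision that depth gives is unknown.

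A pseudocount of 1 was added before taking log2 of TPM, and genes with a mean of at least 1 TPM over the 6 libraries of R343W and P291L were tested. limma 3.58.1 in R 4.3.3 (lmFit and contrasts.fit, then eBayes with a trend and robust) fitted these 6 libraries. Its p-values were two-sided, adjusted by Benjamini-Hochberg over 14426 genes and read at a threshold of 0.05. "Higher" and "lower" counts of lists are of genes past that threshold. The 42 lists held 1300 symbols, 23 of them absent from the table. The comparison, its lists and its tests were chosen with earlier results of these data known.

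Named genes had an adjusted p under 0.05, at least 5 TPM on average in the higher line, lines that did not overlap and a named gene that is neither a pseudogene nor a small RNA. Ranked by fold change, the first 15 each way were named, with up to 4 per described list and RPL3, RPL3L and TXNIP. Genes outside this rule were named after their values were seen: those said so in the text, and markers, GBP1, GBP2, HSF1, XBP1, HSPA5, COL1A1, FOS, EGR1, DUSP1, NFKBIA, TNFAIP3, ACTA2, SRF, MIR5000 and OR51M1. In data simulated for this comparison on 14426 genes, with independent normal noise, 59, 72 and 69 genes were changed by 0.5, 1 and 2 (log2). The fit recovered 62.7%, 97.2% and 97.1% of them, with 13 false calls. The changed genes were drawn among those with a mean log2(TPM + 1) above 2. Far fewer genes were changed than the 5537 called in the data, so the 13 does not measure errors among those calls.

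Alternatives were other pseudocounts, filters, scalings, wider fits of 18 and 30 libraries, a replicate block, plain eBayes and leaving out each library. Gene positions came from GRCh38 with GENCODE 29, and promoters from RefSeq on GRCh38.p14. Sequences and figures were handled in Python 3.11.15 with pandas 2.3.3 and matplotlib 3.10.9.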

Additional observations from a re-analysis of the deposited data

How the results depend on the processing

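Depth is unknown, and 3 libraries of 1 line each limit what the calls can show. As deposited, 3427 genes were higher and 2110 lower, and 147 and 159 with a log2 fold change of at least 1 in size. The counts past 1 followed the pseudocount, being 270 higher and 270 lower with 0.1 and 46 and 48 with 5, and were 92 and 73 among genes with a mean of at least 5 TPM, where fewer genes are tested. A fit over 30 libraries of 10 groups, the 6 of a second technical kind among them, called 2183 genes higher and 1372 lower, and 246 list members higher and 158 lower (392 and 252 as deposited). The cause was not tested. Without each library in turn, 2641 to 3151 genes were higher and 1640 to 2090 lower, 317 to 384 list members were higher and 210 to 246 lower, and 147 to 158 genes were higher and 153 to 194 lower by at least 1. TXNIP was at 0.06 as deposited and -0.00 (adjusted p = 0.976) with median-ratio scaling. RPL3L kept -0.71 but not its call over 18 or 30 libraries (adjusted p = 0.704 and 0.666), which include the RPL3 hairpin library with RPL3L at 121 TPM. RPL3 lost its call in several settings, the replicate block among them (adjusted p = 0.0526). Same-numbered libraries did not deviate together (correlations -0.045 to 0.0096), which does not show whether they were prepared together. With a replicate block 2925 genes were higher and 1842 lower, 4608 of the 4767 calls being shared with the 5537. Of all values of single named genes under the alternatives, 2620 kept their side of the threshold, 49 in 22 genes lost their call and 1 reversed.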
